A study of Mus musculus with 26 samples.

Results

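The comparison set RNA flushed from wounded abdominal aorta 48 h after injury against RNA flushed from unwounded thoracic aorta of the same mice, over all genes of the count table. It holds 18 of the 26 libraries of the series, chosen by their labels: 9 injured and 9 uninjured, 1 of each kind from each of 9 mice (codes E1A to E3C). The other 8 libraries are 5 flushes of other mice 3 h after wounding and 3 samples of the abdominal wall left after the flush. In the injured group, mechanical pressure had been applied to the abdominal aorta, and RLT lysis buffer was run through the lumen of that segment 48 h later. In the uninjured group, the same buffer was run through the thoracic segment of the same animals, taken at the same time, which had not been wounded. Libraries were made from total RNA with a NuGEN kit for very small inputs. All 9 mice were of the C57BL6/J strain, and their age and sex are not among the labels. Wounded tissue was always abdominal and unwounded tissue always thoracic, so injury and aortic segment cannot be told apart in any value below. The 3 code numbers (E1, E2 and E3) name 3 batches of 3 mice each.

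The endothelium is the single cell layer that lines every vessel, and in a healthy adult artery its cells almost never divide. When a patch is lost, cells at the margin spread, move and divide until the gap is covered. Cells entering division switch on a gene programme in order: cyclins that drive the G1 phase, then the DNA copying machinery of S phase, then the kinases, motors and chromosome proteins of mitosis.

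Injured libraries held 3904901 to 11982411 gene counts (median 7783406), and uninjured libraries held 1755773 to 5294304 (median 2176203). The total was higher on the injured side in 8 of 9 mice (mean difference 4797417, two-sided exact sign-flip test p = 0.00781, Benjamini-Hochberg adjusted over 4 library properties 0.0156). The number of genes with a count was 12559 to 13999 in injured and 10449 to 12642 in uninjured libraries, higher in all 9 mice (exact sign-flip p = 0.00391, the smallest this test can give, adjusted p = 0.0156). The first principal component held 54.7% of the variance and placed all injured libraries apart from all uninjured ones. The uninjured libraries of mice E1C, E2C and E3A lay closest to the injured group. They also held the most counts of the uninjured group (3878345, 4448981 and 5294304). In the injured group, the libraries of E2A, E3A and E3B lay closest to the uninjured group and held the fewest counts. The part of library depth in this component was not tested. The injured library of mouse E2A stood apart from its group. Of its counts, 33.2% came from the 100 genes most abundant on average over all injured and uninjured libraries. The mitochondrial genome gave 13.4%. Without that mouse, 2669 genes were higher and 2315 lower, against 2477 and 2184 with it.

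The flush was checked against defining markers of the vessel's cell types. All 12 endothelial markers had counts in both groups. Their summed level was 6959 to 12880 CPM (counts per 1000000 counts) in injured libraries and 13078 to 15158 CPM in uninjured ones. Summed levels, here and below, are per total count of the library. For single genes, library sizes were also scaled by the TMM method. The groups did not overlap in that sum. Of the 12 markers, 1 was higher, Robo4, and 9 were lower (0 and 9 of the 11 at 20 CPM or more). Of all genes tested, 22.7% were higher and 20% lower, and above 300 CPM 47.9% were lower. Smooth muscle markers summed to 1261 to 2124 CPM in injured and 261 to 1575 CPM in uninjured libraries, and 6 of 8 tested were higher. Fibroblast markers summed to 482 to 9507 CPM in injured and 275 to 887 CPM in uninjured libraries, with 6 of 10 tested higher and the highest value being that of mouse E2A. Macrophage markers summed to 793 to 5180 CPM in injured and 219 to 411 CPM in uninjured libraries, without overlap, and 7 of 10 tested were higher. Of the named markers of smooth muscle, 2 of 11 were at 0 in all uninjured libraries, and of macrophages 2 of 12. The part of these cells in any gene's difference was not tested. In such bulk samples, fewer cells of a type and less RNA per cell cannot be told apart.

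**Figure D1:**
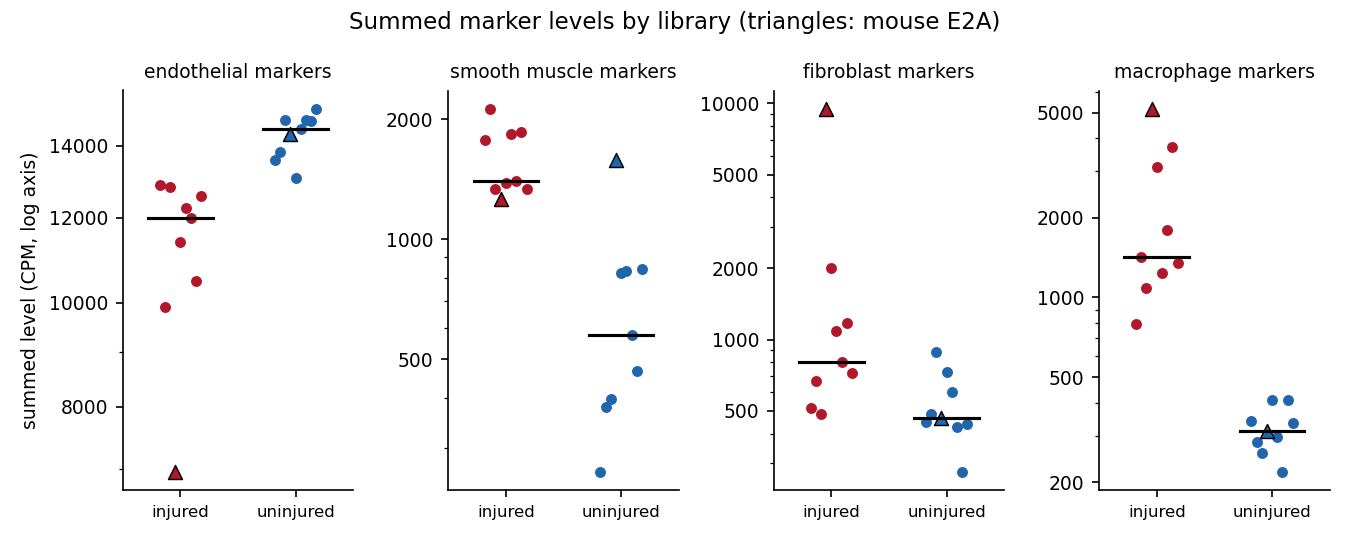
Summed CPM of marker genes (log axis) in each injured and uninjured library for endothelium, smooth muscle, fibroblasts and macrophages, with medians as bars and mouse E2A as triangles. Endothelial sums lay below the uninjured range in all 9 injured libraries, and macrophage sums lay above it.

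Of 10913 genes tested, 2477 (22.7% of those tested) were higher and 2184 (20%) lower in injured flush, in a fit that compared each mouse with itself (edgeR quasi-likelihood test, Benjamini-Hochberg adjusted p under 0.05). The difference was at least 2-fold for 1533 of the higher and 823 of the lower genes. All 9 mice moved in the called direction for 1421 of the higher and 1058 of the lower genes. Every injured library lay above every uninjured one for 707 genes (6.48%), and below for 322 (2.95%). Of the tested genes, 85 had no count in any uninjured library, and 0 had none in any injured library. Those 85 passed the filter through the injured libraries alone, and all 85 were called higher, so they are no separate measure. The injured group also held more counts, 69170279 against 25993525 in the uninjured group. The authors' deposited table of the same contrast lists 3746 genes as higher and 3052 as lower, of which 2264 and 2087 were on the same side here.

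The balance of higher and lower genes moved with abundance. Among 1104 genes under 5 CPM the median log2 fold change was 1.83, and 40.3% of their uninjured values were 0 against 7.36% of their injured values. Among 572 genes above 300 CPM the median was -0.20, with 100 higher and 274 (47.9%) lower. At 100 to 300 CPM, 39.7% of genes were lower. The 6383 genes at 20 CPM or more had a median of 0.003, with 1401 (21.9%) higher and 1699 (26.6%) lower. With every library thinned to the smallest total and the same 10913 genes fitted, 1980 were higher and 1769 lower, and the medians were 1.62 under 5 CPM and -0.20 above 300 CPM. With the filter applied anew to the thinned counts, 9228 genes were tested, of which 1597 were higher and 1647 lower. Beside the count of all tested members, most gene groups below are also counted over members at 20 CPM or more, with the median of those members' log2 fold changes. These counts stand beside the shares of all genes given here, and no list was matched for abundance.

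**Figure D2:**
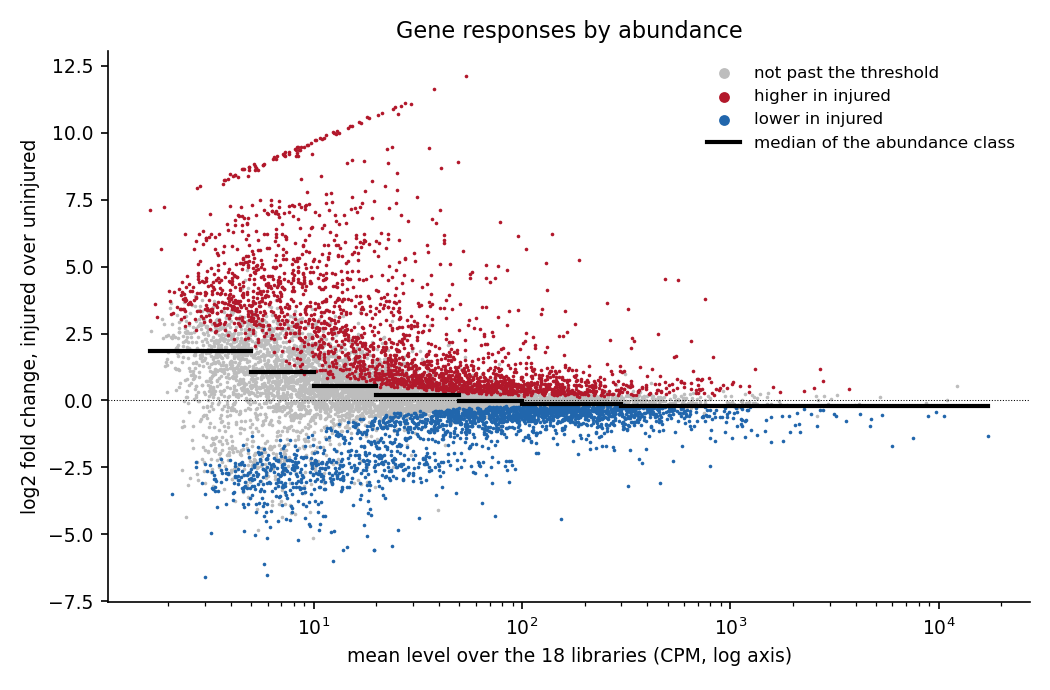
Log2 fold change of every tested gene, injured over uninjured, against mean CPM (log axis), with genes that rose in red, genes that fell in blue, others in grey and medians of 7 abundance classes as black bars. The class median is 1.83 under 5 CPM and -0.20 above 300 CPM, and the straight upper edge holds genes without an uninjured count.

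Genes of the first steps of the cell cycle were higher more often than lower. Of the G1 and S phase entry genes, 11 of 22 tested members were higher and 3 lower (5 of 13 were higher and 2 lower, with a median log2 fold change of 0.31 among those at 20 CPM or more). Ccnd1, the cyclin D1 gene whose product starts the G1 phase (chromosome 7, 144929931 to 144939925, GRCm38), had 130 to 1169 CPM (median 808) in injured and 102 to 211 CPM (median 116) in uninjured libraries. The groups overlapped in mouse E2A only, with 130 CPM in its injured library, the 1 mouse in which Ccnd1 was lower. Its log2 fold change was 2.49 ± 0.35 (SE; adjusted p = 0.000286), and 2.79 without E2A. Cdkn1a, which encodes the cell cycle brake p21, was also higher, at 57.5 ± 15.4 CPM in injured and 18.8 ± 10.8 CPM in uninjured libraries (mean ± SD, n = 9 each), a log2 fold change of 1.72 ± 0.22. The 3 members that fell were Cdkn1c, another brake, at -1.58 ± 0.32, Ccnd2, a second D-type cyclin, at -0.30 ± 0.08, and E2f5, a repressive E2F factor, at -0.48 ± 0.18. E2f5 lost its call in 8 of the 9 fits that left out a mouse.

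DNA copying genes were higher, and 0 were lower. Of the replication list, 30 of 38 tested members were higher and 0 lower, and among those at 20 CPM or more 13 of 18 were higher and 0 lower, with a median log2 fold change of 1.09. Mcm6, a subunit of the helicase that opens the double helix, had 72 to 129 CPM (median 107) in injured and 24.5 to 68.5 CPM (median 41.8) in uninjured libraries. These ranges did not overlap, and the log2 fold change was 1.23 ± 0.16 (adjusted p = 0.000138). Its partner Mcm5 had 3.24 to 56.8 CPM (median 45.9) against 0 to 2.21 CPM (median 0), where the groups did not overlap, and Pcna, the sliding clamp that holds the polymerase on DNA, reached 63.9 ± 15 CPM against 19.3 ± 6.4 CPM. Nucleotide synthesis, which feeds the polymerase, had 15 of 26 members higher and 0 lower (8 and 0 of the 12 at 20 CPM or more, median 0.70). Rrm1, the large subunit of ribonucleotide reductase, was higher by 1.01 ± 0.13 and Tyms, which makes thymidylate, by 2.33 ± 0.52 on the log2 scale. Of the homologous recombination genes, which repair breaks at copied chromosomes, 10 of 19 tested members were higher and 0 lower (2 and 0 of the 5 at 20 CPM or more, median 0.62). Brca2, which acts in this repair, was higher by 1.94 ± 0.55 on the log2 scale.

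The mitosis lists had the highest medians of the 41 lists. Across the 3 mitosis lists (kinases and cyclins, kinetochore and chromosome, spindle and cytokinesis), 66 of 72 tested members were higher, 1 was lower and 5 did not pass, with a median log2 fold change of 5.91 against 0.19 for all genes. The median stayed at 5.91 with the 18 members that had no uninjured count placed at their bound. All 18 were called higher, as were all genes without an uninjured count, so their calls are no separate measure. At 20 CPM or more, 32 of 34 were higher and 1 lower, with a median log2 fold change of 3.63. Their summed level was 2894 to 7677 CPM (median 4739) in injured and 837 to 1183 CPM (median 919) in uninjured libraries, so the lowest injured sum was above the highest uninjured one.

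Mki67, which coats mitotic chromosomes and marks cycling cells (chromosome 7, 135689784 to 135716361), had 351 to 710.2 CPM (median 436) in injured and 17.5 to 66.8 CPM (median 41) in uninjured libraries. The ranges were apart, and the log2 fold change was 3.66 ± 0.23 (adjusted p = 1.36e-06). Top2a, the enzyme that untangles copied chromosomes, had 163 to 438 CPM (median 256) against 0 to 12.6 CPM (median 0.885). Anln, a scaffold of the contractile ring that splits daughter cells, had 114 to 330.4 CPM (median 199) against 0 to 15.9 CPM (median 4.48), with a log2 fold change of 5.65 ± 0.34. Ccna2, the cyclin of late S phase and G2, had 93.9 to 264 CPM (median 138) against 0 to 11 CPM (median 4), again without overlap.

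Many mitosis genes were absent from the uninjured flush at this depth. Cenpf, a large kinetochore protein, had 85.6 to 158 CPM (median 107) in injured libraries and 0 counts in all 9 uninjured libraries. It was at least 998-fold higher (floor of 3 counts over the uninjured group). Genes without an uninjured count passed the filter through the injured libraries alone, so their calls are no separate measure. Aspm, which focuses the spindle poles, was at least 699-fold higher, Cdk1, the master kinase of mitosis, at least 296-fold, and Aurkb, the kinase that corrects chromosome attachment, at least 229-fold. Birc5, its partner survivin, was at least 173-fold higher, Cdc20, an activator of the anaphase ubiquitin ligase, at least 159.5-fold, and Plk1, a polo kinase, at least 93.3-fold. Foxm1, the transcription factor that drives many G2 genes, had 5604 counts over the injured and 2 over the uninjured group, a ratio per total counts of 1053 (exact 95% counting interval 291 to 8697). Ube2c, which tags mitotic cyclins for destruction, had a ratio of 1389 (exact 95% counting interval 249 to 54874), and Kif4, a chromosome-bound motor, of 1307 (exact 95% counting interval 234 to 51653). These intervals cover counting error only. The member that fell, Pttg1, encodes securin, which keeps sister chromatids from separating before anaphase. Pttg1 had 19.7 to 37.8 CPM (median 26.4) in injured and 35.3 to 85 CPM (median 60.8) in uninjured libraries, where the groups overlapped (log2 fold change -1.16 ± 0.15).

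Promoters of 6 of these genes are shown because sequence elements known from cell cycle genes can be read in them: CHR, the cell cycle homology region (TTTGAA or TTCGAA), and CCAAT in the mitosis genes Ube2c (chr2:164769679-164769978, + strand), Ccnb2 (chr9:70421505-70421804, -), Cdk1 (chr10:69352863-69353162, -) and Aspm (chr1:139454523-139454822, +), and the E2F motif (TTTGGCGC, TTTCCCGC, TTTGCCGC or TTTCGCGC) in the replication genes Mcm5 (chr8:75109259-75109558, +) and Mcm6 (chr1:128359656-128359955, -). Each runs 5′ to 3′ on the gene's strand from 250 bases before to 50 bases after the RefSeq start (GRCm38.p6), with every match to any of these 3 motifs on either strand in capitals, where overlapping matches run together. Cdk1 also holds an E2F match, and Mcm5 and Mcm6 also hold CCAAT.
Ube2c: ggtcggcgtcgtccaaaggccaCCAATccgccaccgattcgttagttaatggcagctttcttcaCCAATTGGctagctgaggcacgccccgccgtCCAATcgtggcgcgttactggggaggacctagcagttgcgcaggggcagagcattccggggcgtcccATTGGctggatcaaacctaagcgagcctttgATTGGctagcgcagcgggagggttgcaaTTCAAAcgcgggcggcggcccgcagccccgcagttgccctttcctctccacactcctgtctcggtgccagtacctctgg
Ccnb2: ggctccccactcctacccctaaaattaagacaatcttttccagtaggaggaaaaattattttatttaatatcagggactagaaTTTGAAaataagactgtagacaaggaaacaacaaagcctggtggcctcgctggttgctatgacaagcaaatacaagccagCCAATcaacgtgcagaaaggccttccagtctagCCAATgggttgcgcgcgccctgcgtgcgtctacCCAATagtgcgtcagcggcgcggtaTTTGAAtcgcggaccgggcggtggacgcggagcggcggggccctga
Cdk1: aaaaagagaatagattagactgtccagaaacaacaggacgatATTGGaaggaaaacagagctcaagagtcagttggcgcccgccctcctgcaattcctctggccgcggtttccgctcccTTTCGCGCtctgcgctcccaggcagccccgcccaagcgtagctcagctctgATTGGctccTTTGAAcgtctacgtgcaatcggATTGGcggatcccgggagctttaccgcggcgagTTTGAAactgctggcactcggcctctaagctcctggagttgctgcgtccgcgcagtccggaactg
Aspm: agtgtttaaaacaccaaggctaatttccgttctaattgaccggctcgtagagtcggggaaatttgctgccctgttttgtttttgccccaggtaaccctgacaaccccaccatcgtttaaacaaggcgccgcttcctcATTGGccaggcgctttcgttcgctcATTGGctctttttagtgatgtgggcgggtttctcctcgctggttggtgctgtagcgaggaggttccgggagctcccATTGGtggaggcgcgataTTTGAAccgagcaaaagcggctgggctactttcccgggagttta
Mcm5: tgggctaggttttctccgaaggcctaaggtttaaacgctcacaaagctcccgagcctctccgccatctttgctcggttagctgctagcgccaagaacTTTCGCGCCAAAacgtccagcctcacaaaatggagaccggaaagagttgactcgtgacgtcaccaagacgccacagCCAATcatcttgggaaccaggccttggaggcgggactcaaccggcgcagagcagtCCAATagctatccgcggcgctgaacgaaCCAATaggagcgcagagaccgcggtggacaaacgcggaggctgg
Mcm6: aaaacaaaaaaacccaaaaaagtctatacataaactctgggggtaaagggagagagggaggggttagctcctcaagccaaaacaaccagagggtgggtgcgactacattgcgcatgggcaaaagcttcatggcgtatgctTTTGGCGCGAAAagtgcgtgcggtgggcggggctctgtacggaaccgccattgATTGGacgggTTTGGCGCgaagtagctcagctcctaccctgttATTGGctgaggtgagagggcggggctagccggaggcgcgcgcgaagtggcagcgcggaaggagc

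A CHR match lay in 52 of 79 mitosis gene promoters (65.8%), against 5254 of 27025 promoters of all genes (19.4%). CCAAT lay in 56 of the 79 (70.9%), against 10248 of all (37.9%), with similar shares in the replication list (23 of 36, 63.9%) and the clock list (16 of 22, 72.7%). CHR lay in 9 of the 36 replication promoters (25%) and 1 of the 22 clock promoters (4.55%). In mitosis genes both motifs stood together in 44 (55.7%), against 2082 of all (7.7%). The 3 CCAAT matches of Ccnb2 sit 33 bases apart. An E2F match lay in 13 of 36 replication gene promoters (36.1%), against 8 of 79 in mitosis genes (10.1%) and 626 of all (2.32%), and in Mcm5 and Mcm6 neighbouring E2F matches overlap on opposite strands. Cytoskeletal genes, described below, held CHR in 3 of 32 (9.38%) and CCAAT in 11 (34.4%). Such a match is a description of the letters, not a measured site.

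Genes of the growth machinery were higher more often than lower. In ribosome biogenesis, 23 of 35 tested members were higher and 1 lower, and at 20 CPM or more 13 of 20 were higher and 1 lower, with a median log2 fold change of 0.68. Npm1, the nucleolar chaperone nucleophosmin, had 184 to 343 CPM (median 216) in injured and 77.2 to 129 CPM (median 107) in uninjured libraries, and its ranges did not overlap (log2 fold change 1.20 ± 0.13, adjusted p = 6.04e-05). Wdr12, which acts in a complex with the risen Pes1 and Bop1 in large subunit assembly, was the exception at -1.01 ± 0.21. Among tRNA synthetases, which charge tRNAs with amino acids, 15 of 21 tested members were higher and 0 lower (13 and 0 of the 15 at 20 CPM or more, median 0.70). Nars was higher by 0.68 ± 0.09 and Gars by 0.78 ± 0.13 on the log2 scale. Slc7a5, a transporter of large amino acids, had no uninjured count and was at least 237-fold higher. Slc3a2, its partner chain, was lower by 0.43 ± 0.07. In endoplasmic reticulum folding 12 of 24 tested members were higher and 3 lower (11 and 3 of the 22 at 20 CPM or more, median 0.27), among them Hspa5, the chaperone BiP, at 841 ± 136 CPM against 554 ± 80.8 CPM.

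Sterol and sugar metabolism genes were higher more often than lower. In sterol synthesis and uptake, 11 of 21 tested members were higher and 0 lower (6 and 0 of the 9 at 20 CPM or more, median 0.92). Hmgcs1, an early enzyme of the mevalonate pathway, had 28.8 to 43.5 CPM (median 31.1) in injured and 8.4 to 24.6 CPM (median 14) in uninjured libraries, where the groups did not overlap (log2 fold change 1.32 ± 0.22). In glycolysis and the linked pentose phosphate pathway, 12 of 19 tested members were higher and 1 lower (11 and 1 of the 13 at 20 CPM or more, median 1.06). Ldha, which makes lactate, had 224 to 328 CPM (median 271) in injured and 137 to 248 CPM (median 161) in uninjured libraries, where the groups overlapped (log2 fold change 0.74 ± 0.10). Slc2a1, the glucose transporter GLUT1, was higher by 1.51 ± 0.43. Pfkfb3, which makes the activator of the rate-setting glycolytic step, was the exception, at 141 ± 24 CPM in injured and 209 ± 52.2 CPM in uninjured libraries. Of nuclear genes for the respiratory chain, 4 of 35 tested members were higher and 2 lower (3 and 2 of the 21 at 20 CPM or more, median 0.19), and the higher count was 1 without E1B, E3B or E3C, 2 without E1A or E2B and 8 without E1C. Fatty acid handling had 7 higher and 1 lower of 24 (6 and 1 of the 17 at 20 CPM or more, median 0.20); 3 were higher without E1B or E3C and 4 without E2B.

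**Figure D3:**
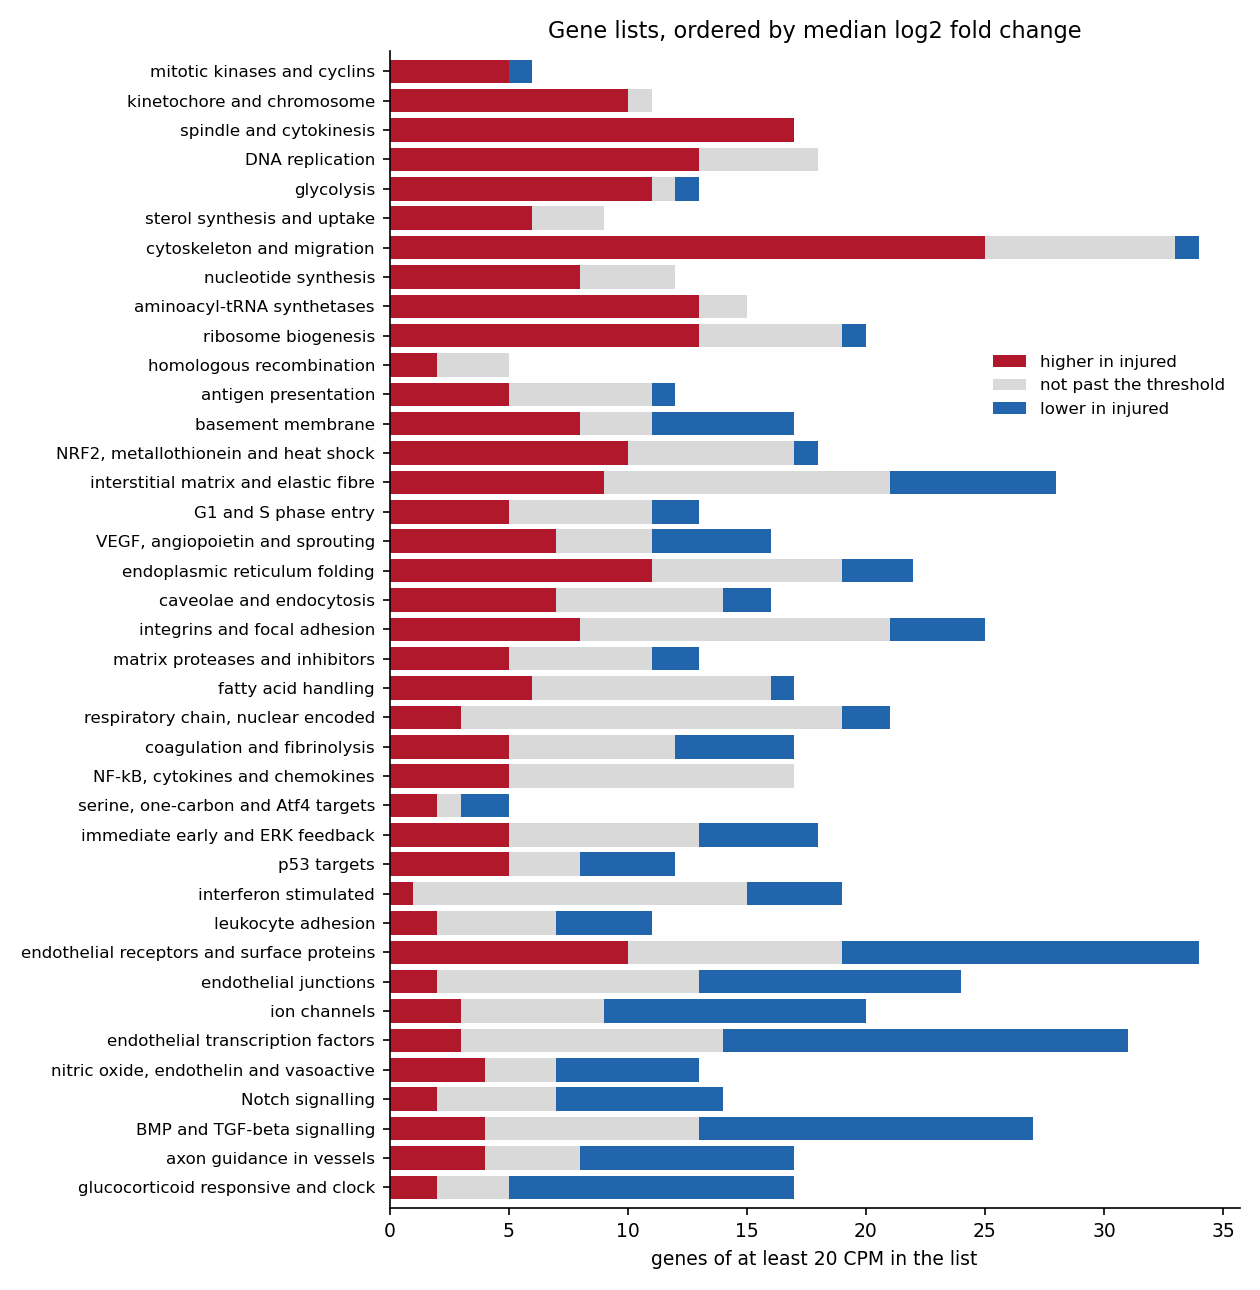
Number of members that rose, fell or did not pass the threshold in each gene list (members at 20 CPM or more, lists with at least 5 such members), ordered by median log2 fold change with the highest on top. The mitosis lists, DNA replication and glycolysis are at the top, and clock, axon guidance and BMP and TGF-beta lists at the bottom.

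Genes of cell shape and movement were mostly higher. In the cytoskeleton and migration list, 26 of 35 tested members were higher and 1 lower (25 and 1 of the 34 at 20 CPM or more, median 0.74), against a median of 0.003 for all genes of that abundance. S100a6, a calcium-binding protein of dividing and moving cells, had 171 to 246 CPM (median 214) in injured and 38.3 to 77 CPM (median 50.8) in uninjured libraries, without overlap (log2 fold change 1.98 ± 0.11, adjusted p = 7.69e-07). Anxa1, a membrane-binding annexin, had 185 to 369.5 CPM (median 231) against 52.2 to 94.9 CPM (median 73.9), again without overlap. Vim, the intermediate filament vimentin, had 1998 to 4578 CPM (median 3763) against 1264 to 2304 CPM (median 1730), where the groups overlapped, and Actb, beta-actin, averaged 1808 ± 335 CPM against 811 ± 198 CPM. Cfl1 and Pfn1, which sever and feed actin filaments, were higher by 1.12 ± 0.11 and 0.89 ± 0.10 on the log2 scale. Anxa3, another annexin, was the 1 member lower, by 0.37 ± 0.09.

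Outside the cell cycle, Cd44 and Col8a1 were among the 10 rises of smallest p. Cd44, the receptor for the matrix sugar hyaluronan (chromosome 2, 102811141 to 102901665), had 236 to 500.1 CPM (median 278) in injured and 22.2 to 58.4 CPM (median 49.8) in uninjured libraries. The groups did not overlap, it was higher in 9 of 9 mice, and its log2 fold change was 2.86 ± 0.13 (adjusted p = 2.91e-07). Col8a1, a short-chain collagen laid down in vessel walls under repair (chromosome 16, 57624258 to 57754737), had 328 to 1174 CPM (median 1064) against 10.7 to 78.4 CPM (median 37). The ranges were apart in this gene too, with a log2 fold change of 4.55 ± 0.23 (adjusted p = 4.6e-07). In libraries taken 3 h after wounding from other mice, Cd44 averaged 220.2 ± 118 CPM and Col8a1 474 ± 153 CPM (SD, n = 5). These 3 h values were scaled by TMM over all 26 libraries, and the values above over the 18 compared here. A comparison at 3 h uses the same uninjured libraries.

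**Figure D4:**
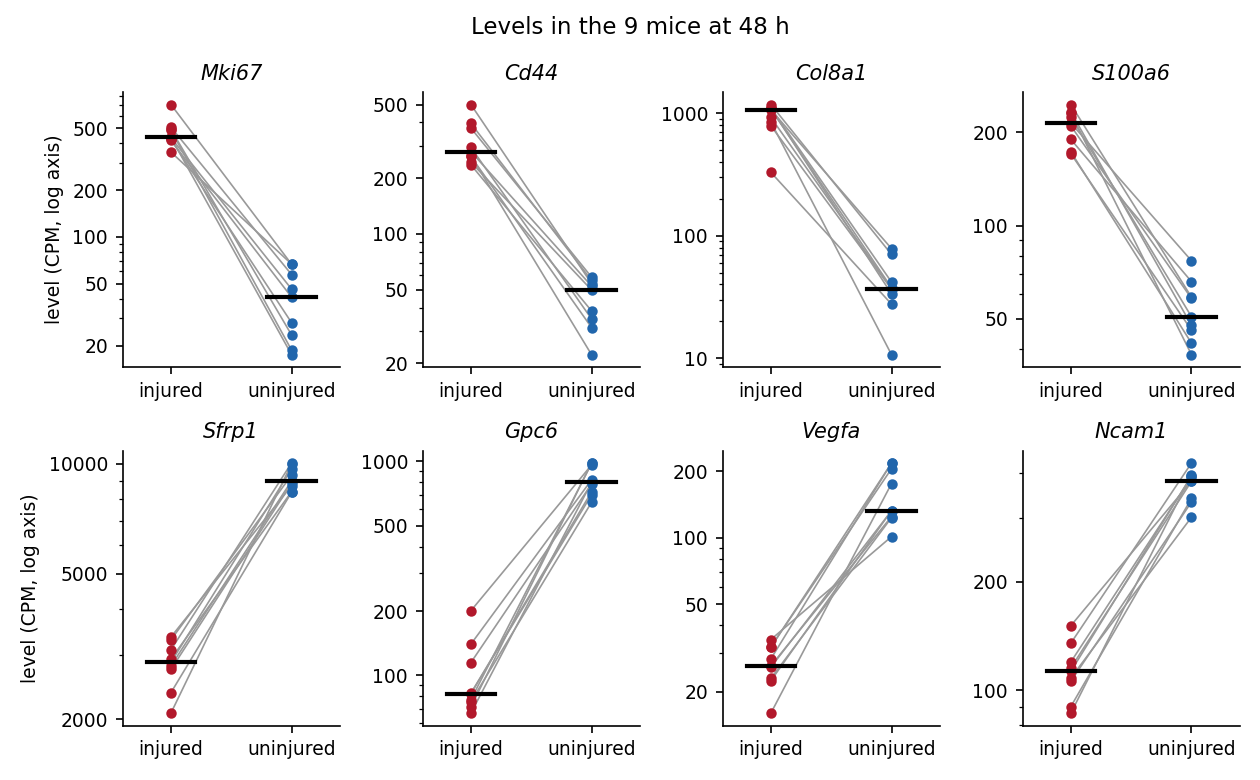
CPM (log axis) of 8 genes in each mouse, injured at left and uninjured at right, joined by a line per mouse, with medians as bars. Mki67, Cd44, Col8a1 and S100a6 were higher and Sfrp1, Gpc6, Vegfa and Ncam1 lower in all 9 mice, and in none of the 8 genes did the groups overlap.

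Fibrinolysis and clotting genes moved both ways. In the coagulation and fibrinolysis list, 8 of 21 tested members were higher and 6 lower (5 and 5 of the 17 at 20 CPM or more, median 0.10). Anxa2 and S100a10, which together hold plasminogen on the cell surface, were higher by 1.27 ± 0.14 and 1.21 ± 0.18. Procr, the endothelial protein C receptor, had 66.6 to 752 CPM (median 587) in injured and 138 to 294 CPM (median 204) in uninjured libraries, where the groups overlapped. It was higher in 8 of 9 mice, with a log2 fold change of 1.25 ± 0.34 (adjusted p = 0.0134), and 1.54 without E2A, the 1 mouse in which it stood apart. Tfpi, the inhibitor of the tissue factor pathway, had 31.6 to 42.9 CPM (median 37.2) in injured and 79.7 to 137 CPM (median 102) in uninjured libraries, where the groups did not overlap, and was lower in 9 of 9 mice (log2 fold change -1.50 ± 0.09). Vwf, the platelet-binding von Willebrand factor, was lower by 0.57 ± 0.10. Thbd, thrombomodulin, had a log2 fold change of -0.05 ± 0.11 and did not pass (adjusted p = 0.732).

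Transcription factors of endothelial identity were lower more often than higher. In that list, 3 of 34 tested members were higher and 17 lower. At 20 CPM or more the counts were 3 and 17 of 31, with a median of -0.27. Of all genes 20% were lower, but 26.6% at 20 CPM or more, 39.7% at 100 to 300 CPM and 47.9% above 300 CPM. The list was not matched to genes of like abundance. When each mouse was left out, 15 to 17 members were lower, and 5 were higher without E2A. Epas1, the hypoxia-inducible factor HIF-2 alpha, had 2775 to 4278 CPM (median 3775) in injured and 4717 to 8000 CPM (median 5537) in uninjured libraries, without overlap (log2 fold change -0.69 ± 0.09, adjusted p = 0.000178). Gata6 and Gata2, zinc-finger factors of the endothelium, were lower by 0.92 ± 0.10 and 0.69 ± 0.08. Klf2 and Klf4, factors induced by laminar flow, were lower by 0.74 ± 0.10 and 0.67 ± 0.17. Hey2, a Notch target of arterial cells, had 164 ± 47 CPM in injured and 318 ± 70.5 CPM in uninjured libraries. The 3 members that rose were Tcf4, a basic helix-loop-helix factor, by 1.09 ± 0.10, Ets1, an ETS factor of angiogenic cells, by 0.81 ± 0.20, and Mef2c by 0.39 ± 0.11. Erg, an ETS factor that maintains endothelial identity, was lower by 0.25 ± 0.09, and Sox17, a factor of arterial cells, had a log2 fold change of 0.13 ± 0.11 and did not pass (adjusted p = 0.34).

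Endothelial receptors and surface proteins divided. In that list, 11 of 36 tested members were higher and 15 lower (10 and 15 of the 34 at 20 CPM or more, median -0.13). Of all genes at 20 CPM or more, 21.9% were higher and 26.6% lower, and the share lower grew with abundance. Nrp1, a co-receptor for VEGF and semaphorins, had 451 to 683 CPM (median 544) in injured and 1023 to 1840 CPM (median 1467) in uninjured libraries, without overlap (log2 fold change -1.39 ± 0.10). Calcrl and Ramp2, which form the adrenomedullin receptor, were lower by 1.69 ± 0.14 and 0.94 ± 0.07. Emcn, the sialomucin endomucin, was lower by 1.41 ± 0.19 and Eng, the co-receptor endoglin, by 1.06 ± 0.10. Ly6a, the surface antigen Sca-1, had 247 to 1122 CPM (median 813) in injured and 108 to 491 CPM (median 287) in uninjured libraries, where the groups overlapped, and rose by 1.67 ± 0.13 on the log2 scale (adjusted p = 5.49e-06). Ly6e and Adgrl4, the latrophilin-like receptor Eltd1, rose by 0.70 ± 0.09 and 1.15 ± 0.15. Cdh5, VE-cadherin, had 748 to 1555 CPM (median 1449) against 1057 to 1305 CPM (median 1150), where the groups overlapped, and a log2 fold change of 0.20 ± 0.11 that did not pass (adjusted p = 0.164). The endothelial marker sum was itself lower, but it is no separate measure. Its markers are members of this list, apart from Erg, which is in the transcription factor list. The part of endothelial cell content in the falls was not tested.

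**Figure D5:**
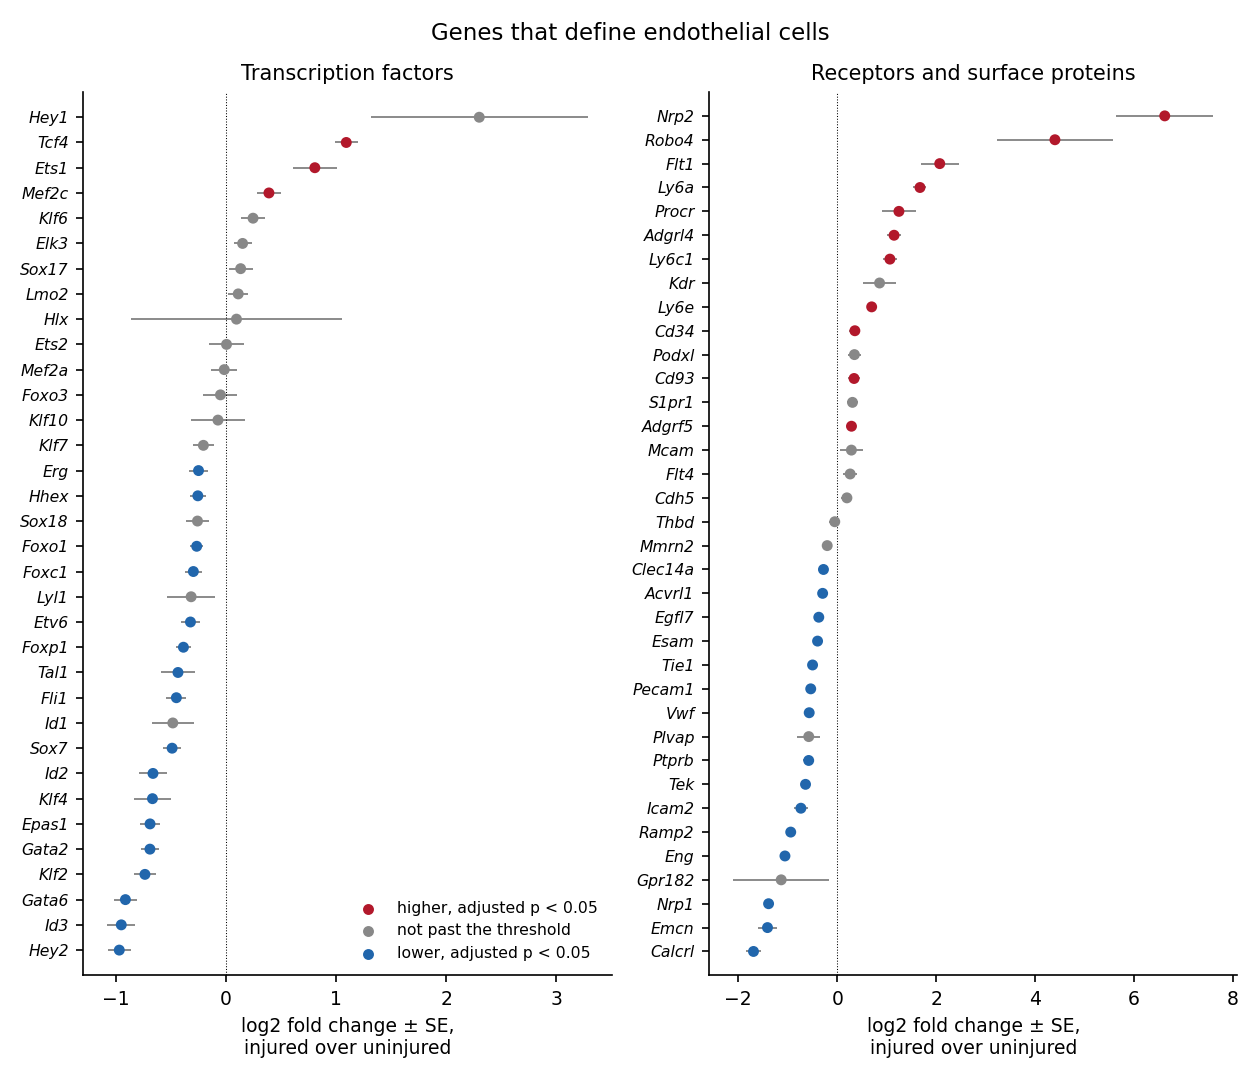
Log2 fold change ± SE, injured over uninjured, of 34 endothelial transcription factors and 36 endothelial receptors and surface proteins. Of the factors 3 rose and 17 fell, and of the receptors 11 rose and 15 fell.

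Junction genes were lower more often than higher. 3 of 27 tested members were higher and 11 lower (2 and 11 of the 24 at 20 CPM or more, median -0.22) in that list. The share lower among all genes was 26.6% at 20 CPM or more and 47.9% above 300 CPM. Cgnl1, the junction scaffold paracingulin, had 662 to 1134 CPM (median 901) in injured and 1663 to 2614 CPM (median 1909) in uninjured libraries, without overlap (log2 fold change -1.14 ± 0.10). Jam2, a junctional adhesion molecule, was lower by 0.80 ± 0.09 and Pecam1, which joins neighbouring endothelial cells, by 0.54 ± 0.10. Cldn5, the tight junction claudin, was higher, by 1.00 ± 0.23, and by 1.18 without E2A. The tight junction scaffold Tjp1 and the adherens junction protein Ctnnb1 had log2 fold changes of 0.03 ± 0.07 and -0.13 ± 0.06 and did not pass. In the vasoactive list, 5 of 18 tested members were higher and 7 lower (4 and 6 of the 13 at 20 CPM or more, median -0.29). Ace, which makes angiotensin II, had 1237 to 2159 CPM (median 1945) against 2761 to 4134 CPM (median 3421), without overlap, and Ece1, which makes endothelin, was lower by 0.77 ± 0.13. Nos3, endothelial nitric oxide synthase, was lower by 0.43 ± 0.12. Of the prostaglandin enzymes, the inducible Ptgs2 had 30.4 to 445 CPM (median 224) in injured and 3.4 to 51.9 CPM (median 18.4) in uninjured libraries, where the groups overlapped, and rose by 3.21 ± 0.35, and the constitutive Ptgs1 fell by 0.79 ± 0.13.

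Signalling pathways that shape arteries were lower in part. In the BMP and TGF-beta list, 4 of 29 tested members were higher and 15 lower (4 and 14 of the 27 at 20 CPM or more, median -0.40). The higher count was 2 without E2A, E2C or E3B. Of all genes, 26.6% were lower at 20 CPM or more, 39.7% at 100 to 300 CPM and 47.9% above 300 CPM. Among ligands, Bmp6 had 366 to 886 CPM (median 548) in injured and 678 to 1889 CPM (median 1433) in uninjured libraries, where the groups overlapped, and Bmp4 was lower by 0.91 ± 0.15. Among receptors, Bmpr2 was lower by 0.51 ± 0.11 and Bmpr1a by 0.57 ± 0.08. Among targets that report BMP signalling, Smad6 was lower by 1.38 ± 0.21, Smad7 by 0.73 ± 0.12 and Id3 by 0.95 ± 0.13. Twist1, a factor of mesenchymal transition (chromosome 12, 33957671 to 33959829), had 12.6 to 49 CPM (median 15) against 67.5 to 249 CPM (median 164), without overlap (log2 fold change -3.06 ± 0.18, adjusted p = 1.01e-06). Other factors of that transition, Zeb1 and Zeb2, had -0.02 ± 0.06 and 0.19 ± 0.22 and did not pass, and Snai2 was lower by 1.18 ± 0.24.

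In the Notch list, 2 of 19 tested members were higher and 7 lower (2 and 7 of the 14 at 20 CPM or more, median -0.32). The higher count was 0 without E2B and 1 without E1B, E3B or E3C. The share lower among all genes was 26.6% at 20 CPM or more and 47.9% above 300 CPM. Efnb2, the arterial ephrin ligand, had 627 to 1095 CPM (median 748) in injured and 1040 to 2147 CPM (median 1905) in uninjured libraries, where the groups overlapped (log2 fold change -1.09 ± 0.13). The receptors Notch4 and Notch1 were lower by 0.73 ± 0.10 and 0.59 ± 0.12. The ligand Dll4 was higher, at 0 to 69.97 CPM (median 44.6) against 0 to 20.8 CPM (median 3.5), where the groups overlapped (log2 fold change 3.00 ± 0.94, adjusted p = 0.0238), and lost its call without mouse E2B. In the VEGF and sprouting list, 12 of 24 tested members were higher and 5 lower, and at 20 CPM or more 7 of 16 were higher and 5 lower, with a median log2 fold change of 0.31. Vegfa, the main growth factor of the endothelium (chromosome 17, 46016993 to 46032369), had 16 to 34.5 CPM (median 26.2) in injured and 101 to 218 CPM (median 133) in uninjured libraries, without overlap (log2 fold change -2.56 ± 0.16, adjusted p = 1.3e-06). Its relative Vegfc was higher by 0.94 ± 0.13, and Flt1, a VEGF receptor, by 2.07 ± 0.38. Pdgfb, a growth factor for mural cells, was higher by 1.69 ± 0.52, and Ackr3, a chemokine scavenger, was lower by 1.73 ± 0.11.

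Basement membrane genes moved both ways. In that list, 9 of 19 tested members were higher and 6 lower (8 and 6 of the 17 at 20 CPM or more, median 0.55). Lamc1, the laminin gamma 1 chain, had 288 to 419 CPM (median 350.3) in injured and 148 to 209.7 CPM (median 184) in uninjured libraries, without overlap. The widespread collagen IV chains Col4a1 and Col4a2 were higher by 0.52 ± 0.19 and 0.59 ± 0.19. The chains of the other collagen IV network were lower: Col4a3 had 90.1 to 316 CPM (median 182) against 473 to 724 CPM (median 593), Col4a4 was lower by 1.77 ± 0.17 and Col4a5 by 2.84 ± 0.59. Lamb2, the laminin beta 2 chain, and Hspg2, perlecan, were lower by 0.77 ± 0.11 and 0.68 ± 0.13.

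In the interstitial matrix and elastic fibre list, 14 of 35 tested members were higher and 7 lower (9 and 7 of the 28 at 20 CPM or more, median 0.46). Eln, elastin, had 822 to 2108 CPM (median 1262) in injured and 2047 to 3952 CPM (median 2951) in uninjured libraries, where the groups overlapped (log2 fold change -1.17 ± 0.13). Fbln5 and Mfap5, which belong to elastic fibres, were lower by 0.74 ± 0.10 and 1.28 ± 0.10. Fbn1, fibrillin 1, was higher by 1.32 ± 0.13 and Fn1, fibronectin, by 0.44 ± 0.09. The collagen VI chains Col6a3 and Col6a2 had no uninjured count: Col6a3 was at least 363-fold higher and Col6a2 at least 245-fold, and Col6a1 had a ratio of 678 (exact 95% counting interval 122 to 26776). In mouse E2A the log2 difference was 9.93 for Col6a2 and 9.73 for Col6a1. The other mice had 3.09 to 6.40 and 3.24 to 5.99. Col6a1, with 1 count over the uninjured group, kept its call without E2A (adjusted p = 0.000134). The call of Col6a2 is no separate measure, since all genes without an uninjured count were called higher. E2A was also the mouse with the highest fibroblast marker sum. Of 10 tested fibroblast markers, 6 were higher and 0 lower (3 and 0 of the 7 at 20 CPM or more). Those that did not pass included Col3a1 at 0.67 ± 0.45, Col1a2 at 0.51 ± 0.43 and Dcn at 0.60 ± 0.59.

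Matrix proteases were more often higher, with 13 of 24 members up and 3 down (5 and 2 of the 13 at 20 CPM or more, median 0.20). Ctss, the cathepsin S of macrophages, had 98 to 659.7 CPM (median 237) in injured and 9.91 to 49.4 CPM (median 25.2) in uninjured libraries, without overlap, and the macrophage marker sum moved with it. Ctsb, cathepsin B, was higher by 0.83 ± 0.18 and Mmp14, a membrane metalloprotease, by 1.90 ± 0.47. Timp2, an inhibitor, and Mmp2, a gelatinase, were lower by 0.59 ± 0.07 and 0.86 ± 0.12. In the integrin and focal adhesion list, 9 of 27 tested members were higher and 4 lower (8 and 4 of the 25 at 20 CPM or more, median 0.21). Itgav and Itgb3, the subunits of the vitronectin receptor, were higher by 0.89 ± 0.11 and 1.95 ± 0.26, and Itga5, of the fibronectin receptor, by 0.72 ± 0.15. Itga9 was lower by 1.06 ± 0.08 and Zyx, an adaptor of focal adhesions, by 0.57 ± 0.14, and Itgb1, which pairs with most alpha chains, had -0.10 ± 0.09 and did not pass.

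Clock genes were lower more often than higher. In the glucocorticoid and clock list, 4 of 23 tested members were higher and 13 lower (2 and 12 of the 17 at 20 CPM or more, median -0.61). Tef, an output factor of the circadian clock, had 116 to 282 CPM (median 193) in injured and 230.3 to 523 CPM (median 460.3) in uninjured libraries, where the groups overlapped and 9 of 9 mice were lower (log2 fold change -1.08 ± 0.16, adjusted p = 0.000354). Its relatives Hlf and Dbp were lower by 1.36 ± 0.18 and 0.87 ± 0.15. The repressors Per2, Per1 and Cry2 were lower by 1.12 ± 0.13, 0.61 ± 0.19 and 0.77 ± 0.13. The nuclear receptors Nr1d2 and Rora were lower by 1.02 ± 0.11 and 1.03 ± 0.10, and Clock, the activator, was higher by 0.43 ± 0.09. The other members that rose were Nfil3, Fkbp5 and Errfi1. Their log2 fold changes in the fit without E2A were larger, at 5.27, 2.76 and 2.07. Both flushes of a mouse were taken 48 h after injury, and the hour of collection is not given in the labels.

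The promoters of Per1 (chr11:69098699-69098998, + strand) and Tef (chr15:81802423-81802722, + strand) are shown because each holds the E-box that the clock activators are known to bind (CACGTG, a palindrome, the only motif in capitals here). They follow the same window and RefSeq build as above.
Per1: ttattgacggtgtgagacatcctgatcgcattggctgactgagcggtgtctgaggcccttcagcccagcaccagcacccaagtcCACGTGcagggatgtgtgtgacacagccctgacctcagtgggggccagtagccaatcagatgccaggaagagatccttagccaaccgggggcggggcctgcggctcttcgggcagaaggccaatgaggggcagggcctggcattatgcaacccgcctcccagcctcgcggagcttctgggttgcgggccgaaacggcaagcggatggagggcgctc
Tef: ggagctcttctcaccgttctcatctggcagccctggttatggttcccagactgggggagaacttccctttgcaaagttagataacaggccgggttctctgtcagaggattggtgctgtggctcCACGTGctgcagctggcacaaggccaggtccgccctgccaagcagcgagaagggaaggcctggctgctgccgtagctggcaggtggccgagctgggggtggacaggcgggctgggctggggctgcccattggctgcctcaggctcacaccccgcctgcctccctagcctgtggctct

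An E-box lay in 6 of 22 promoters of that list (27.3%), against 1957 of 27025 (7.24%) of all genes and 6 of 32 (18.8%) of the cytoskeletal genes.

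Ion channel genes were lower more often than higher, with 12 of 23 down and 3 up (3 and 11 of the 20 at 20 CPM or more, median -0.26). Pkd1, polycystin 1, had 173 to 346 CPM (median 244) in injured and 428 to 564 CPM (median 470.3) in uninjured libraries, without overlap. Kcnj2, an inward rectifier potassium channel, was lower by 0.83 ± 0.13 and Itpr2, a calcium release channel, by 0.76 ± 0.11. Piezo1, a mechanosensitive channel, was higher by 0.62 ± 0.15. Ano1, a calcium-activated chloride channel, had no uninjured count and was at least 439-fold higher. In the axon guidance list, 7 of 24 tested members were higher and 10 lower (4 and 9 of the 17 at 20 CPM or more, median -0.44). Plxna2, a semaphorin receptor, was lower by 0.62 ± 0.13 and Sema6d, a semaphorin, by 0.67 ± 0.08, and Sema7a and Plxna1 were higher by 1.74 ± 0.29 and 1.10 ± 0.25.

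Inflammatory genes gave mixed counts. Beside them, 22.7% of all genes tested were higher and 20% lower, and at 20 CPM or more 21.9% and 26.6%. In the NF-kB, cytokine and chemokine list, 14 of 26 tested members were higher and 0 lower, and at 20 CPM or more 5 of 17 were higher and 0 lower, with a median log2 fold change of 0.09. Cxcl12, a chemokine that draws progenitors and leukocytes, had 75.8 to 496 CPM (median 394) in injured and 74.4 to 236 CPM (median 128) in uninjured libraries, where the groups overlapped (log2 fold change 1.36 ± 0.35). Ccl2, which draws monocytes, had a ratio per total counts of 179.8 (exact 95% counting interval 49.6 to 1487). In the leukocyte adhesion list, 2 of 12 tested members were higher and 4 lower (2 and 4 of the 11 at 20 CPM or more, median -0.11); the higher count was 5 without E2A. Vcam1 and Icam1, which leukocytes bind, were lower by 0.60 ± 0.11 and 0.42 ± 0.07, and Sele, E-selectin, had 0.60 ± 0.43 and did not pass. In the interferon list, 5 of 25 tested members were higher and 4 lower (1 and 4 of the 19 at 20 CPM or more, median -0.05), with 3 higher without E3B or E3C and 2 lower without E1B or E2B. In antigen presentation, 7 of 17 tested members were higher and 1 lower (5 and 1 of the 12 at 20 CPM or more, median 0.56): Cd74, the class II invariant chain, had 548 ± 232 CPM in injured and 138 ± 102 CPM in uninjured libraries, and H2-K1, a class I heavy chain, was the exception at -0.45 ± 0.07. Among immediate early genes 10 of 27 tested members were higher and 5 lower (5 and 5 of the 18 at 20 CPM or more, median -0.01): Myc and Fosl2, growth-linked factors, were higher by 2.67 ± 0.65 and 1.20 ± 0.15, and Jun and Dusp1, an ERK pathway phosphatase, were lower by 0.64 ± 0.06 and 0.75 ± 0.11. In the oxidative and heat stress list, 13 of 23 tested members were higher and 1 lower (10 and 1 of the 18 at 20 CPM or more, median 0.49): Hmox1, haem oxygenase, was higher by 3.67 ± 0.43 and Gsr, glutathione reductase, by 1.20 ± 0.12, and Hspa1a, a stress chaperone, was the exception at -0.53 ± 0.15. Of p53 targets, 8 of 18 tested members were higher and 4 lower (5 and 4 of the 12 at 20 CPM or more, median -0.03), with Trp53 itself higher by 0.79 ± 0.12 and Perp, a junction protein, lower by 1.30 ± 0.11.

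Several other genes rose with no count in any uninjured library. Ptafr, the receptor for platelet-activating factor, was at least 379-fold higher, Maf, a macrophage factor, at least 350.5-fold, and Runx1, a blood cell factor, at least 340-fold. Rassf4, of the Ras association family, and Pik3r5, a regulatory subunit of PI3K gamma, had bounds of at least 393-fold and 298-fold. Neutrophil markers summed to 139 to 701 CPM in injured and 38.7 to 195 CPM in uninjured libraries, and lymphatic endothelial markers to 133 to 262.5 CPM against 53.3 to 98.2 CPM. The lymphatic sums did not overlap. Of 5 tested lymphatic markers, Prox1, Lyve1 and Mmrn1 were higher and 0 lower (22.7% of all genes tested were higher). Mmrn1 had no uninjured count, so its call is no separate measure. At 20 CPM or more 1 of 2 was higher, and 2 to 4 were higher when each mouse was left out.

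Among the falls of smallest p were matrix and signalling genes. Sfrp1, a secreted Wnt antagonist and 1 of the 10 most abundant genes (chromosome 8, 23411502 to 23449632), had 2081 to 3361 CPM (median 2867) in injured and 8366 to 10060 CPM (median 8988) in uninjured libraries. The ranges were apart, with a log2 fold change of -1.70 ± 0.10 (adjusted p = 1.19e-06). Gpc6, a cell-surface glypican (chromosome 14, 116925315 to 117976544), had 66.7 to 200.5 CPM (median 82.3) against 644 to 983 CPM (median 797), without overlap (log2 fold change -3.10 ± 0.16, adjusted p = 4.66e-07). Ncam1, a cell adhesion molecule (chromosome 9, 49502136 to 49798925), had 86.4 to 151 CPM (median 113) against 302 to 428 CPM (median 381) (log2 fold change -1.72 ± 0.08), and again every injured value was the lower. The other genes of smallest p that fell were Gria3, a glutamate receptor subunit, by 2.02 ± 0.11, Rbms3, an RNA-binding protein, by 1.52 ± 0.09, Pcolce2, which aids collagen processing, by 2.18 ± 0.13, and Bace2, a protease, by 1.39 ± 0.09.

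The largest falls by size included liver and neuronal genes. Ahsg, a liver plasma protein, had 0 to 2.65 CPM (median 1.2) in injured and 7.29 to 114 CPM (median 41.6) in uninjured libraries, where the groups did not overlap and 9 of 9 mice were lower (log2 fold change -5.42 ± 0.65), and Cps1, a liver enzyme of the urea cycle, fell by 3.53 ± 0.74. Gdf6, a BMP-family ligand, fell by 4.42 ± 0.80, Meis1, a Hox cofactor, by 3.29 ± 0.90 and Sfrp2, a Wnt antagonist, by 3.20 ± 0.27. Kcnd2, a potassium channel of neurons, fell by 3.23 ± 0.69 and Gabrb1, a GABA receptor subunit, by 3.65 ± 0.90. Hepatocyte markers summed to 11.8 to 134 CPM in injured and 43.6 to 2042 CPM in uninjured libraries. Olfactory receptor genes, which these cells are not known to use, had 107 of 157 tested members lower and 0 higher (median -2.52), vomeronasal receptors 16 of 19 lower, and predicted Gm genes 47 lower and 16 higher of 116. Only 5 olfactory and 0 vomeronasal members reached 20 CPM. The olfactory count was 68 or 69 without E1A, E1B, E2B or E3C, and the vomeronasal count was 10 without E1B and 7 without E3B. Higher Gm genes were 8 to 10 without E1A, E1B, E2B, E3B or E3C. These families share near-identical copies, so reads may be split between them, and their part in the falls of low genes was not tested.

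Hox genes mark position along the body axis in many cell types, and their members of higher number are used further back. Of 9 tested members of the posterior groups 6 to 13, 4 rose and 0 fell (22.7% of all genes tested rose), and of 4 tested members of the anterior groups 1 to 5, 0 rose and 1 fell. At 20 CPM or more, 1 of 3 posterior members rose, with a median log2 fold change of 0.45 against 1.47 for all 9, and genes of low abundance had positive medians in general. Hoxd8 had 30.1 to 58.1 CPM (median 51) in injured and 12.6 to 38.9 CPM (median 21.2) in uninjured libraries, where the groups overlapped (log2 fold change 1.21 ± 0.19, adjusted p = 0.000504). Hoxa2 was lower by 0.44 ± 0.10, and Hoxd9, Hoxa10 and Hoxa9 had log2 fold changes of 3.66 ± 0.84, 3.03 ± 1.09 and 1.21 ± 0.40. Between 2 and 5 posterior members rose when each mouse was left out, and Hoxa10 and Hoxa9 both lost their call without any 1 of E1A, E1B, E2B, E3B or E3C, which left 2.

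The 9 mice varied in how closely they followed the shared pattern. The correlation of a mouse's log2 differences with the mean of the others, over 6383 genes, was 0.594 in E2A and reached 0.885 in E3C; genes are not independent replicates. An edgeR interaction test of whether the difference varied among the 3 batches called 4 of 10913 genes (0.0367%), and 640 at an unadjusted p under 0.05. Among them were Thbs1, thrombospondin 1 (log2 fold changes of 1.95, -1.54 and -0.58 in batches 1, 2 and 3, adjusted p = 0.0144), Edn1, endothelin 1 (0.91, -0.91 and -0.81, adjusted p = 0.0494), and Glis3, a zinc-finger factor. Within batches of 3 mice, 399, 176 and 656 genes were higher and 451, 121 and 490 lower.

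Lack of a call is not evidence of no change, but for 2010 genes that did not pass, the 95% interval of the fold change lay within 1.5-fold either way, 1995 of them at 20 CPM or more.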

How the data were processed

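RNA-seq libraries of 9 injured and 9 uninjured flushes were compared from the count of reads per gene that the authors deposited for 21119 genes, of which 2407 were at 0 in all libraries. The submitters' processing notes name HISAT2 2.0.3, HTSeq, DESeq2 1.14.1 and the GRCm38 build, with no role or order; no source used here gives the annotation or the use of strand, and overlapping or antisense genes may share reads. The authors' deposited table of the same contrast holds log2 fold changes and p-values, used for counts of shared calls only.

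Counts were scaled by TMM, filtered with filterByExpr and tested with edgeR 4.0.16 (R 4.3.3, quasi-likelihood, mouse as block; limma 3.58.1 loaded) with Benjamini-Hochberg adjustment over all tested genes. CPM of single genes are on the TMM scale, and log2 CPM used a prior count of 2. Summed CPM of markers and lists are per total count of the library, without TMM scaling. The labels give each mouse's code to both of its flushes, which is where the pairing comes from; deviations of same-mouse libraries from their group means correlated at -0.149 to 0.286, and in 0 mice was the own partner the closest. No 2 libraries agreed within sampling noise. The labels say that the 9 mice are separate animals. Where a gene had no uninjured count, its fold was bounded by placing 3 counts in that whole group, and a gene with 1 to 3 counts was given an exact 95% counting interval; both cover counting error only. Alternatives were DESeq2 1.42.0, other scalings and filters, thinning, an unpaired fit, batches alone and leaving out each mouse. Simulated data with known changes were used to test the scripts.

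The members and gene lists were chosen with earlier results of these data known. Named genes were the 12 largest rises and falls at 20 CPM or more in the same direction in at least 8 mice, the 10 smallest p in each direction, up to 4 per list and direction with members against the list's trend, all tested Hox genes, the 10 most abundant, the 5 smallest p of the batch test and the 5 called in only the paired or only the unpaired fit; list members named beyond these were chosen after their values were seen, and a few genes that the rule names are not reported here. Promoter sequences are from RefSeq (GRCm38.p6), and gene positions from GENCODE M21: of 89, 44 and 28 listed mitosis, replication and clock genes, 79, 36 and 22 have a window.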

Additional observations from a re-analysis of the deposited data

Results flagged for a closer look

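Each of 311 named genes was screened for a mouse whose log2 difference, injured minus uninjured, lay far from those of the other 8; 39 had one, and chance alone flags about 1 in 20 genes (5%). Mouse E2A was the one apart in 24 of the 39, E1C in 8, E3B in 3, E3A in 2 and E1B and E2B in 1 each.

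In E2A the difference lay below those of the other 8 mice, whose range follows each value, in Arhgap11a (4.67, against 6.61 to 8.38), Ccnd1 (-0.69, against 2.31 to 3.34), Adss (-0.23, against 0.70 to 1.24), Clspn (0.67, against 4.15 to 6.87) and Ncl (0.14, against 0.58 to 1.01). It lay below them also in Slc7a5 (3.17, against 5.70 to 6.87), Dnajc3 (-0.73, against -0.36 to -0.12), Ly6e (0.11, against 0.59 to 0.97), Procr (-1.82, against 0.75 to 2.22) and Cd34 (-0.54, against 0.30 to 0.66). It lay below them also in Cd93 (-0.50, against 0.16 to 0.71), F2r (-1.35, against -0.83 to -0.44), Entpd1 (-1.30, against -0.46 to -0.0496), Ehd4 (-0.92, against -0.50 to -0.15) and Clic4 (-0.54, against 0.44 to 1.01). It lay below them also in Eif3g (-0.81, against 0.21 to 1.03) and Lama3 (-2.09, against 0.51 to 1.5). E2A lay above the other mice in Col6a2 (9.93, against 3.09 to 6.40), Dkk3 (0.55, against -5.23 to -2.42), Nid2 (8.91, against 2.77 to 4.58), Col6a1 (9.73, against 3.24 to 5.99) and Col5a1 (0.92, against -1.04 to -0.33). It lay above them also in mt-Co1 (2.94, against -1.09 to 0.79) and mt-Cytb (2.60, against -1.31 to 0.57).

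Mouse E1C was apart in E2f8 (4.65, against 6.44 to 7.48), Brca1 (3.37, against 5.80 to 7.02), Ccnb2 (4.58, against 5.95 to 7.31), Lpl (-2.42, against 4.22 to 10.99) and Atp5a1 (-0.26, against 0.13 to 0.42). Mouse E1C was apart also in Gja1 (0.37, against 5.73 to 7.12), Oas2 (1.64, against 3.70 to 5.2) and Slit3 (-1.27, against 4.78 to 6.57). Mouse E3B was apart in Sfrp1 (-2.26, against -1.82 to -1.38), Flt1 (6.72, against 0.57 to 2.88) and Ptgs2 (6.88, against 2.25 to 3.72). Mouse E3A was apart in Ano1 (5.90, against 6.75 to 7.54) and Ifit2 (0.59, against -1.97 to -0.79). Mouse E1B was apart in Cenpf (8.74, against 7.87 to 8.30). Mouse E2B was apart in Tfpi (-1.96, against -1.59 to -1.27).

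Among whole-library properties, the injured library of E2A stood apart in 2 shares of counts. The 100 genes most abundant on average over all libraries compared held 33.2%, against 22.1% to 26.4% in the other 8. Mitochondrial counts were 13.4%, against 2.95% to 4.92%. The injury difference itself varied among the 3 batches in 4 genes, among them 3 given here (edgeR quasi-likelihood test of the interaction, Benjamini-Hochberg adjusted): Thbs1 at an adjusted p of 0.0144, and Edn1 and Glis3 at 0.0494 each. Glis3, a zinc-finger factor, had log2 fold changes of 4.50, -1.07 and 0.10 in batches 1, 2 and 3. What set E2A or a batch apart was not tested.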

How the results depend on the processing

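The 2477 genes higher and 2184 lower moved with the test and the number of mice. DESeq2 with the mouse block called 3962 higher, thinning every library to the smallest total gave 1597 of the 9228 genes that then passed the filter (1980 of the same 10913 genes), and 1401 were higher at 20 CPM or more. The 20 CPM count and the thinned fit of the same genes were chosen after seeing the data. Batches 1, 2 and 3 alone, with 3 mice each, gave 399, 176 and 656 higher and 451, 121 and 490 lower. Without each mouse in turn, 1843 to 2669 genes were higher and 1775 to 2315 lower. Dropping the pairing by mouse (no replicate block) gave 2238 higher and 2300 lower, of which 2071 and 2065 were called in both fits. Removing the filter gave 3002 higher and 1931 lower. The batch test called 4 genes, 1 with a filter of 5 CPM and 1 with DESeq2 size factors.

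Leaving out each mouse, the injured minus uninjured difference in the share of the 100 most abundant genes was -4.67 to -3.10 percentage points and that of mitochondrial counts -0.205 to 1.58, negative without E2A. Genes whose direction turned had no call of their own in most of these fits, and the cause was not tested. In batch 1 alone the log2 fold change was -0.196 for mt-Co1, -0.853 for mt-Cytb, 2.02 for Thbs1, 0.976 for Edn1, 0.715 for Serpinb6b, -0.314 for Postn and 0.0335 for Ubfd1. In batch 2 alone it was -0.00542 for Procr, 0.0798 for Lox, 0.221 for Hoxb5, 0.708 for mt-Nd5 and -1.05 for Glis3. In batch 3 alone it was 0.135 for mt-Nd5. With no replicate block it was -0.0628 for Hoxb3, 0.166 for mt-Nd5 and -0.133 for Glis3, and over all 26 libraries -0.0207, 0.213 and -0.0862. Over fits leaving out a mouse it was -0.0553 to 0.245 for Hoxb3, -0.26 to 0.188 for mt-Cytb, -0.356 to 0.103 for mt-Nd5, -0.401 to 0.142 for Thbs1 and -0.208 to 0.022 for Serpinb6b. Among gene lists, the lower count was 2 without E2A in antigen presentation and fatty acid handling (1 with all mice), and 1 in homologous recombination without E2C or E3A and in NF-kB genes without E3A (0 with all mice). Of the uninjured values of genes under 5 CPM, 40.3% were 0, so differences of such genes rest on few counts.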
